A study of Mus musculus with 4 samples.

Results

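Matrix metalloproteinases (MMPs), ADAMs, ADAMTS proteases and their tissue inhibitors (TIMPs) were examined in cultured olfactory basal cells and in sorted respiratory basal cells of the mouse. The genes were chosen by symbol alone, and 79 of the 23281 genes in the table matched: 23 MMP, 33 ADAM, 19 ADAMTS and 4 TIMP genes. RNA had been sequenced from 3 libraries of horizontal basal cells (HBCs), the reserve stem cells at the base of the olfactory epithelium, taken from wild-type mice and grown in vitro to passage 3 with no sort given. A single library came from respiratory basal cells (RBCs), the stem cells of the neighbouring airway lining. These cells were microdissected and sorted as TdTomato+ from KRT5-CreER;Ai9-fl(stop)TdTomato mice, in which the keratin 5 promoter drives the Cre, so that the reporter marks Krt5-expressing cells and can persist in their descendants. The labels give no age, no inducing agent and no number of animals, nor do they tell whether separate animals or cultures gave the 3 HBC libraries. Tissue, culture, mouse line and sorting all differ between the groups and cannot be told apart.

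MMPs are zinc-dependent enzymes that cut collagens, laminins and other matrix proteins, and they are made as proenzymes that must be activated. ADAMs sit in the plasma membrane and release the outer parts of growth factors, receptors and adhesion molecules, whereas ADAMTS enzymes are secreted and cut proteoglycans or process procollagens. TIMPs are small secreted proteins that bind the active site and block these enzymes. In epithelia that heal or migrate, basal cells are known to use several of these proteases to loosen their contact with the basement membrane.

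Many MMP genes lie next to one another on mouse chromosome 9, and their promoters are known for binding sites of the AP-1 (Fos and Jun) transcription factors. Promoter windows of 300 bases (250 before and 50 after the start site, RefSeq, build GRCm38.p6) were matched by symbol for 49 of the 79 genes. The AP-1 motif TGANTCA, which reads the same on both strands, was found in 13 of these 49 genes and in 8.97% of all 27025 genes with such a window. It allows any middle base, and the only match in Mmp20, Adam20 and Adam25 is TGAATCA, whereas the others hold TGAGTCA or TGACTCA. A gene counted when any of its windows matched, and Adam19, Mmp12 and Mmp7 also have a window without a match. MMP genes held it in 8 of 18 cases, ADAM genes in 5 of 17, ADAMTS genes in 0 of 10 and TIMP genes in 0 of 4. All 8 of those MMP genes belong to the chromosome 9 group of 10 neighbours, and 0 of the 8 other MMP genes with a window held the motif. The windows of Mmp10, Mmp3 and Mmp13 are shown because these genes reached at least 10 in a group while their neighbours did not, and capitals mark the motif.
Mmp10 promoter, chr9:7502092-7502391, plus strand: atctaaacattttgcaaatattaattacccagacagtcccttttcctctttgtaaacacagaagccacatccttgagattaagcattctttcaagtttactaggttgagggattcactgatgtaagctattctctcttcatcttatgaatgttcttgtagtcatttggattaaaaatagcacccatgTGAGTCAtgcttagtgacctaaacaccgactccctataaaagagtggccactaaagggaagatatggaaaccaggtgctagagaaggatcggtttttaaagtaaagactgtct
Mmp3 promoter, chr9:7445572-7445871, plus strand: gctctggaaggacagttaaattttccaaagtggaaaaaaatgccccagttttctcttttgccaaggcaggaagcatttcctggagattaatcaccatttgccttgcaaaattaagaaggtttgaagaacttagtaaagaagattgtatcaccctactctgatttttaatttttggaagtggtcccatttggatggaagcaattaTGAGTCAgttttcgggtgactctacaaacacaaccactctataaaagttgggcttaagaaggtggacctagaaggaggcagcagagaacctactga
Mmp13 promoter, chr9:7272264-7272563, plus strand: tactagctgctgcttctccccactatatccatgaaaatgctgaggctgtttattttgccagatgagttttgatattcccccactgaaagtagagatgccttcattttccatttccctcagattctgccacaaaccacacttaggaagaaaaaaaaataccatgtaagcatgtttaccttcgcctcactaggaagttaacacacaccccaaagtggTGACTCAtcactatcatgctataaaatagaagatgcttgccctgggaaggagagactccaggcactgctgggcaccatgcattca
The motif begins at -63 in Mmp10, at -46 in Mmp3 and at -35 in Mmp13, counted in bases from the start site. A match is a run of letters and not a measured binding site.

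Values below are depth-scaled FPKM (fragments per kilobase of transcript, the deposited values divided by a factor per library). Being per length, they can be set side by side across genes. Deposited values summed to about 8377230 to 10856000 per library, and read numbers were not given in the sources used here. A gene was called when limma's Benjamini-Hochberg adjusted p over all 16440 genes tested was under 0.05 and the change was at least 2-fold on the log2(value + 1) scale. Folds are quotients of the scaled levels, printed only where both groups reach 2. Only the 3 HBC libraries supply a spread, so every p-value assumes an equal spread for RBCs and measures only the scatter between these libraries, which may be technical. Basal cell markers were present in both groups, with the 10 markers summing to 43422 to 46130 in HBCs and 74397 in RBCs. Of these 10, 7 were called higher in RBCs and 1 in HBCs.

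Most markers of other cells were also called higher in the RBC library, beside 34.2% of all genes tested, and this may bear on the genes below. All 10 fibroblast markers were called higher there (their sum was 53.8 to 71.5 in HBC libraries, against 7795 in RBCs). Dcn alone supplied 6902 of that RBC sum. Of 9 tested macrophage markers, 8 were called higher in RBCs and Cd68 was called higher in HBCs (sum 522 to 602 and 15125), with Emr1, Csf1r and C1qb at 0 in HBCs and Marco at 0 in every library. Lyz2 alone supplied 14770 of the RBC macrophage sum (21.5 on average in HBCs), and Cd68 most of the HBC sum (515 on average). The macrophage sums therefore mostly compare these genes and not the whole list. Of 6 tested neutrophil markers, 4 were called higher in RBCs (sum 251 to 359 and 446), with Csf3r, Retnlg, Ngp and Camp at 0 in HBCs and Mpo and Elane at 0 in every library. Endothelial markers were higher in 8 of 10 cases (sum 87.8 to 140 and 119.7, with Egfl7 called higher in HBCs), bone markers in 5 of 7 (98.3 to 137 and 465) and olfactory neuron and glia markers in 8 of 8 (122 to 141 and 3300). At 0 in HBC libraries were the endothelial genes Emcn, Tie1 and Cldn5, the bone genes Ibsp, Dmp1, Sp7 and Ocstamp (the last also in RBCs), and Stoml3 and Sox10. Their part in the results on the proteases was not tested. In such bulk samples fewer cells of a type and less RNA per cell cannot be told apart.

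Most of the 79 genes were silent or very low, and a small number carried the families' RNA. No signal was listed in any library for 15 genes (12 ADAM, 2 MMP and 1 ADAMTS), and 26 were at 0 in all 3 HBC libraries. Between 46 and 48 genes were above 0 in a given HBC library and 57 in the RBC library. In the whole table, 70.6% of genes were above 0 in the HBC average and 76.1% in RBCs, so a listing at 0 is not particular to these families. At 100 or more stood 11 genes in each HBC library and 12 in the RBC library. Of all 23281 genes in the table, 8438 averaged at least 100 in HBCs. The plot of levels by library shows the 21 genes that averaged at least 10 over the groups.

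**Figure D1:**
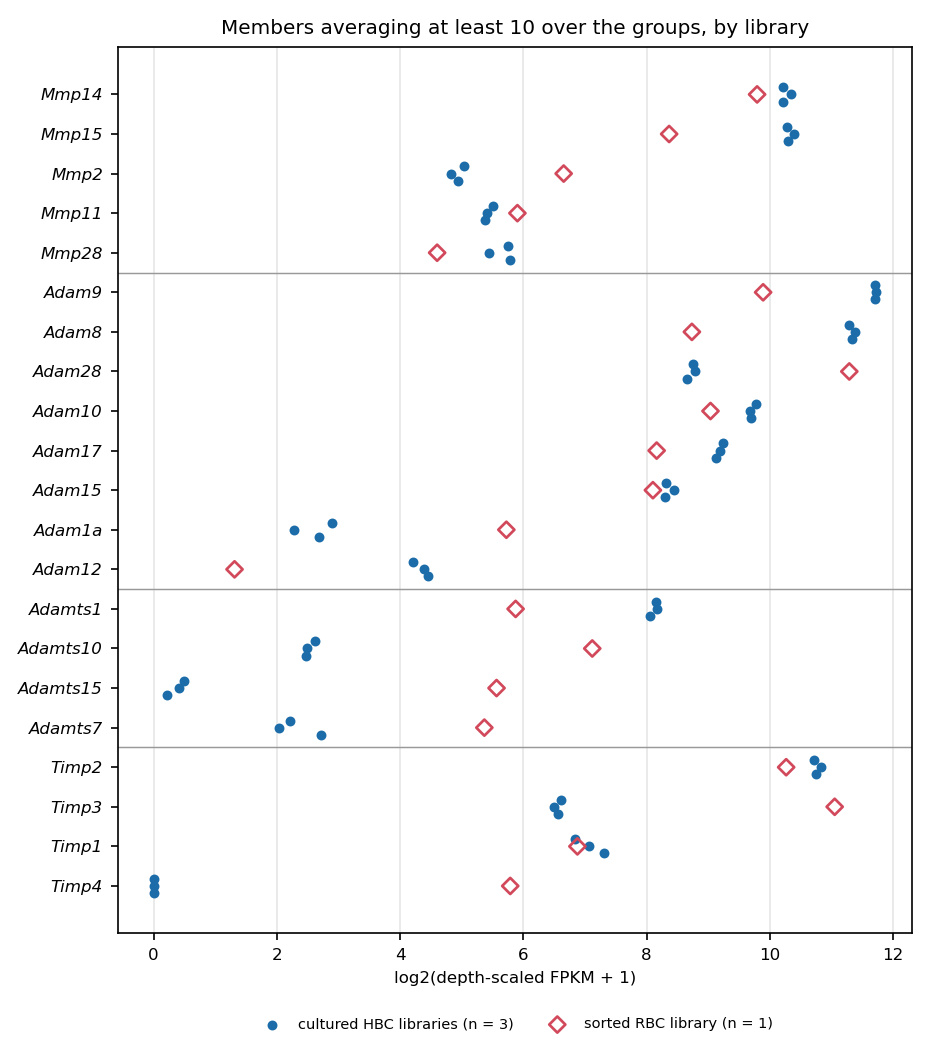
Depth-scaled FPKM on a log2(value + 1) axis for the members whose HBC mean and RBC value average at least 10, grouped by family. Filled points are the 3 cultured HBC libraries and the open diamond is the RBC library. Adam9 is at 3324 to 3376 in HBCs and 949 in RBCs, whereas Adam28 and Timp3 sit far to the right in RBCs.

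The MMP and ADAM sums were lower in the RBC library and the TIMP sum was higher, though single members did not all follow their family's sum. For MMPs, HBC libraries 1, 2 and 3 summed to 2614, 2837 and 2618, against 1463 in RBCs. ADAM sums were 8137 ± 119 (SD, n = 3) and 5066, ADAMTS sums were 307 ± 9.83 (SD, n = 3) and 370.2, and TIMP sums were 1973 ± 72.6 (SD, n = 3) and 3524. The ratio of TIMP to MMP sums, which does not depend on the scaling, was 0.727, 0.721 and 0.754 across HBC libraries 1, 2 and 3, and 2.41 in RBCs. The higher TIMP sum rested on Timp3 (93.0 on average in HBCs and 2123 in RBCs) and, at a lower level, Timp4 (0 and 54.2). Timp2 was lower in RBCs (1746 and 1230) and Timp1 was near level (134 and 117). Mmp15 led the lower MMP sum (1283 and 329), and Adam28 went against the ADAM sum (424 and 2503). These sums and ratios were formed after the values had been seen and are given without a test. The RBC sum of the ADAMTS family was spread over many genes, since Adamts1 made up 90.8% of it in HBCs and the leading gene, Adamts10, made up 37.3% in RBCs.

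**Figure D2:**
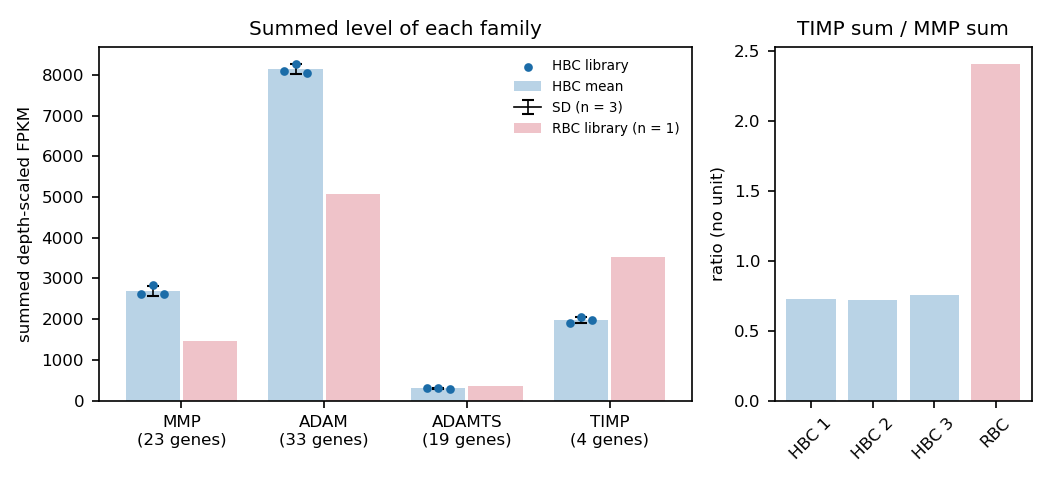
Left, summed depth-scaled FPKM of each family, with the HBC mean and its SD (n = 3), points for the HBC libraries and the RBC library (n = 1). Right, the TIMP sum divided by the MMP sum within each library, which is 0.721 to 0.754 in HBCs against 2.41 in RBCs. Timp3 alone makes up 60.3% of the RBC TIMP sum.

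Of the 79 genes, 51 passed the filter on low values (at least 1 when the HBC mean and RBCs are averaged). Called higher in HBCs were 12 of them, beside 12.8% of all genes tested, and called higher in RBCs were 25, beside 34.2% of all genes tested. Together these were 37 of 51, beside 47.0% of all genes tested, and 14 were not called. Among the 25 were 4 genes listed at 0 in all HBC libraries, whose call the filter fixes and for which no p is given. In all, 15 of the 25 had an HBC mean under 1 and passed the filter only through the RBC value, and 3 of the 12 passed only through HBCs (Mmp3, Mmp10 and Adamts4), so these counts are descriptions. The median log2 change (RBC minus HBC) of the 51 was 1.57, and 0.84 without those 4 genes (0.29 for all genes tested with such genes left out). It turned to -0.52 under quantile normalization and was 0.36 with a pseudocount of 10 and 0.14 with a filter at 5. For all genes tested the median was 0.45, a shift that became -0.08 with equal medians, -0.13 with quantile normalization, 0.55 with equal sums and 0.56 with values as deposited. Quantile normalization turned the split of calls from 12 and 25 to 15 higher in HBCs and 9 higher in RBCs, and equal medians gave 14 and 23. Of all calls, 72.8% were higher in RBCs, against 45.9% with quantile normalization and 53.2% with equal medians. By family, 5 of 16 tested MMPs were called higher in HBCs and 4 in RBCs. Of 15 tested ADAMs the counts were 4 and 6, and both families stand beside 12.8% and 34.2% of all genes tested. Of those higher in RBCs, 3 of the 4 MMPs and 3 of the 6 ADAMs passed the filter only through the RBC value. Among the 5 MMPs higher in HBCs, 2 passed only through HBCs. Under quantile normalization the MMP counts became 7 and 0 of 15 and the ADAM counts 5 and 3. Without HBC library 1, MMPs higher in HBCs fell from 5 to 2, a pseudocount of 0.1 left 1 MMP higher in RBCs, and a pseudocount of 10 left 3 ADAMs higher there.

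Of the 33 called genes with signal in HBCs, 17 kept their call without each HBC library in turn. Under every alternative run, 12 kept it: Adam8, Adam9, Adam12, Adamts1, Mmp10 and Mmp15 towards HBCs, and Adam1a, Adam22, Adam28, Adamts10, Adamts15 and Timp3 towards RBCs. Of these, Mmp10, Adam22 and Adamts15 passed the filter only through the group where they were high, which favours a kept call. All runs reuse the same libraries, and the share of all called genes that kept their call was not computed.

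**Figure D3:**
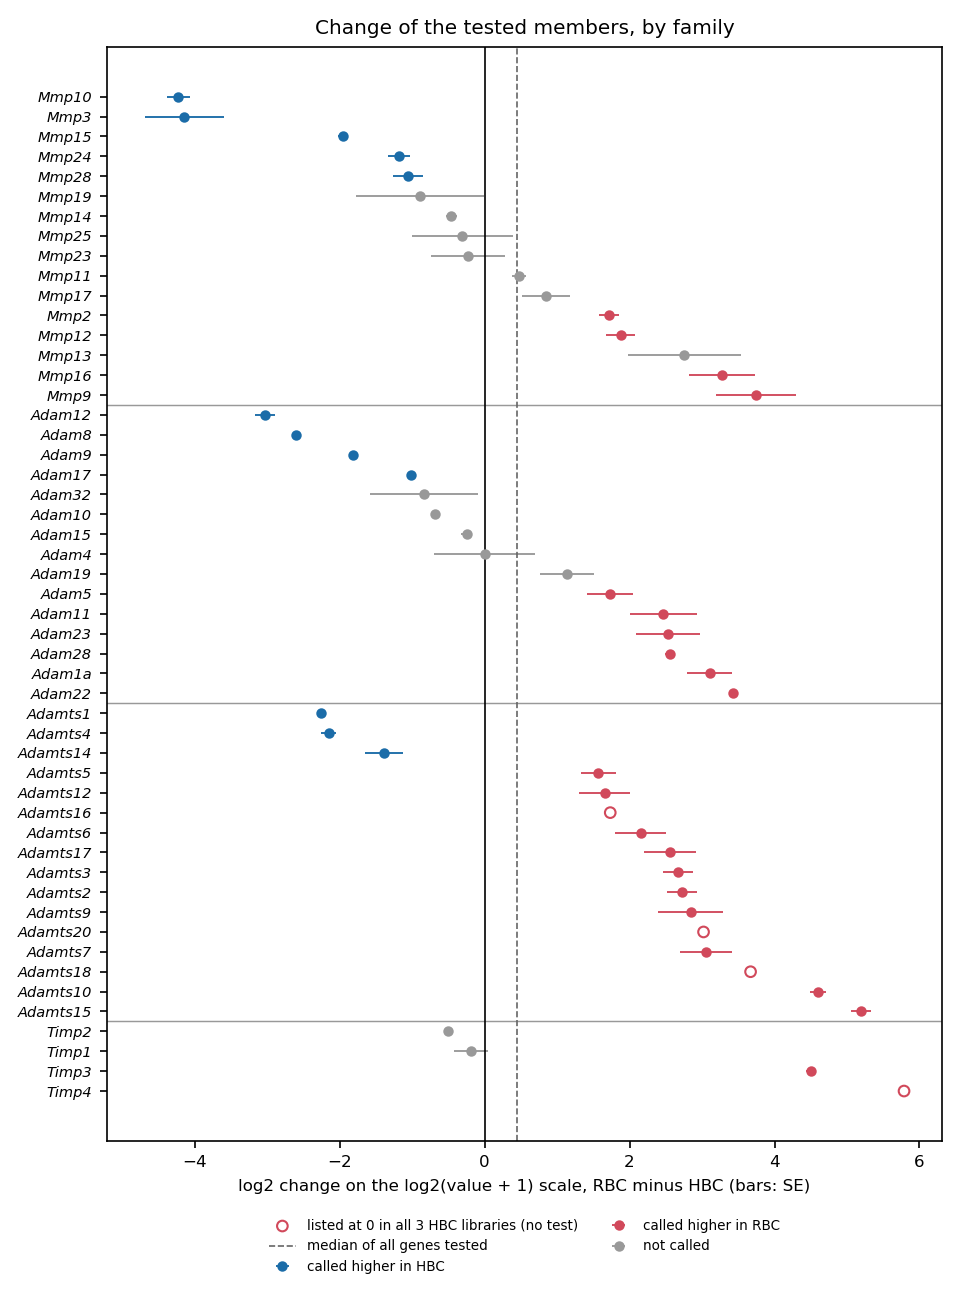
Change of the 51 tested members on the log2(value + 1) scale (RBC minus HBC), with bars for the SE from limma and colours for the call, by family. Open circles are the 4 genes listed at 0 in all HBC libraries, which have no test, and the dashed line is the median of all genes tested (0.45). Of the 16 tested ADAMTS genes, 13 lie to the right and were called higher in RBCs, beside 34.2% of all genes tested. Of these 13, 8 passed the filter only through the RBC value, and quantile normalization left 4 of 15 called.

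The stromelysins Mmp3 and Mmp10, which cut proteoglycans, laminin and fibronectin and can activate other proMMPs, were found in the cultures and listed at 0 in the RBC library. Mmp10 was at 17.7, 19.7 and 15.9 in HBC libraries 1, 2 and 3 and at 0 in RBCs (log2 change -4.22, SE 0.156, limma adjusted p = 0.00125). Mmp3 was at 13.8, 26.2 and 12.7 and at 0 in RBCs (log2 change -4.14, SE 0.545, adjusted p = 0.0125 by limma). HBC library 2 held about as much Mmp3 as libraries 1 and 3 together, and without library 1 the call was lost (adjusted p = 0.0567, range over the alternatives 0.00517 to 0.0567). Mmp11, stromelysin 3, was at 44.3, 41.5 and 40.6 in HBCs and at 58.9 in RBCs and was not called; its direction turned with equal medians (log2 change -0.021) and quantile normalization (-0.76). It shares 155 exonic bases with Chchd10 on the other strand (527 in HBCs and 1038 in RBCs). Use of strand in the counting was not given in the sources, so reads of such overlapping genes may be mixed. Mmp7, matrilysin, was at 0 in HBCs and 1.38 in RBCs.

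Collagenases, which make the opening cut in fibrillar collagen, were nearly silent in the cultures. Mmp13 was at 0.939, 0.377 and 2.98 in HBC libraries and at 13.8 in RBCs. The RBC value lay above all HBC values, but the difference was not called (log2 change 2.76, SE 0.781, limma adjusted p = 0.0603). It was called without HBC library 3, the highest of the group (adjusted p = 0.0355, range over the alternatives 0.0151 to 0.699). A pseudocount of 10 also gave a call for Mmp13 (log2 change 1.07), and 9 of its 12 alternatives left it not called. Mmp8, the neutrophil collagenase, was at 0, 1.24 and 0 in HBCs and 0 in RBCs, and Mmp1a and Mmp1b were at 0 in RBCs and at most 0.637 in an HBC library.

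The gelatinases Mmp2 and Mmp9, which cut denatured collagen and type IV collagen, were both called higher in the RBC library. Mmp2, a typical product of stromal cells, was at 31.9, 27.3 and 29.8 in HBC libraries and at 99.7 in RBCs, 3.36-fold higher (log2 change 1.72, SE 0.135, limma adjusted p = 0.00462). With quantile normalization its log2 change of 0.71 missed the 2-fold minimum. Mmp9, which neutrophils, macrophages and keratinocytes can release, was at 0, 0.953 and 0 in HBCs and at 15.8 in RBCs (log2 change 3.74, SE 0.557, limma adjusted p = 0.016). Only HBC library 2 listed any Mmp9, and the call was lost without library 1 (adjusted p = 0.0679) or 3 (0.0671), and adjusted p ran from 0.00183 to 0.216 among the alternatives. Fibroblast markers (10 of 10) and macrophage markers (8 of 9) were higher in the same RBC library, and their part in the gelatinase values was not tested.

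Membrane-type MMPs supplied most MMP transcripts in both groups, with Mmp14 and Mmp15 making up 93.1% of the HBC sum and 83.1% of the RBC sum. Mmp14 (MT1-MMP), which activates proMMP2 and cuts pericellular collagen, was at 1181, 1295 and 1182 in HBC libraries and 887 in RBCs. All HBC libraries lay above the RBC library by a modest step that did not reach 2-fold (log2 change -0.46, SE 0.0769, limma adjusted p = 0.0206). Mmp15 (MT2-MMP), its close relative, was at 1243, 1349 and 1258 in HBCs and 329 in RBCs, 3.90-fold higher in the cultures (log2 change -1.96, SE 0.0647, limma adjusted p = 0.00102). Within each HBC library Mmp15 exceeded Mmp14 by a ratio of 1.04 to 1.06, and in RBCs the ratio was 0.371.

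The other membrane-type genes were low. Mmp24 was at 12.7, 12.6 and 10.6 in HBCs and 4.70 in RBCs, 2.55-fold higher in the cultures (limma adjusted p = 0.0113). Its call did not hold without HBC library 1 (adjusted p = 0.0507) or 2 (0.0536), and adjusted p ran from 0.00109 to 0.0536 among the alternatives. Mmp24 shares 637 exonic bases with BC029722 on the other strand, which stood at 688 in HBCs and 724 in RBCs, so its small values may hold reads of that gene. Mmp16, a membrane-type enzyme of nervous and mesenchymal tissue, was at 0.797, 0.640 and 0 in HBCs and 12.9 in RBCs (limma adjusted p = 0.0139). Without HBC library 2 its call was lost (adjusted p = 0.0627, range over the alternatives 0.00152 to 0.339). Mmp17 and Mmp25, the membrane-type enzymes with a lipid anchor, were not called (2.28 ± 0.792 and 1.90 ± 1.42 in HBCs, SD, n = 3, against 4.79 and 1.17 in RBCs).

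Of the remaining MMPs, Mmp28 (epilysin), an MMP of keratinocytes, was at 52.9, 42.4 and 54 in HBC libraries and 23.3 in RBCs. It was 2.14-fold higher in the cultures (limma adjusted p = 0.0273), just past the 2-fold minimum. That call was lost without HBC library 1 (adjusted p = 0.0976) or 3 (0.0916), and adjusted p ran from 0.00314 to 0.0976 among the alternatives. Mmp28 shares 466 exonic bases with 1700020L24Rik on the other strand, which was at 43.7 in HBCs and 16.6 in RBCs. Mmp12, macrophage elastase, was at 0, 0 and 0.270 in HBCs and 2.99 in RBCs and was called higher there (limma adjusted p = 0.00813). The RBC value is small, and the call was lost with a pseudocount of 0.1 (adjusted p = 0.0509, range over the alternatives 0.00208 to 0.0509). Mmp19 and Mmp23 were low in both groups and not called (3.48 ± 2.38 and 6.66 ± 2.80 in HBCs, SD, n = 3, against 1.15 and 5.27 in RBCs), and Mmp20, Mmp21 and Mmp27 stood below 1 everywhere.

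Of the 10 neighbouring MMP genes on chromosome 9, Mmp3 and Mmp10 were called higher in HBCs and Mmp12 higher in RBCs. In the HBC libraries 2 of them, Mmp3 and Mmp10, averaged at least 10, and in RBCs 1 did, Mmp13, which was not called. Mmp1b and Mmp20 were listed at 0 in all 4 libraries, and both carry the TGANTCA motif (as TGAATCA in Mmp20). Mmp1a, Mmp12 and Mmp7 carry it too, so the motif was also found in neighbours with little or no RNA. Mmp8 and Mmp27 lack it in their windows and were at or below 1.24 in every library.

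**Figure D4:**
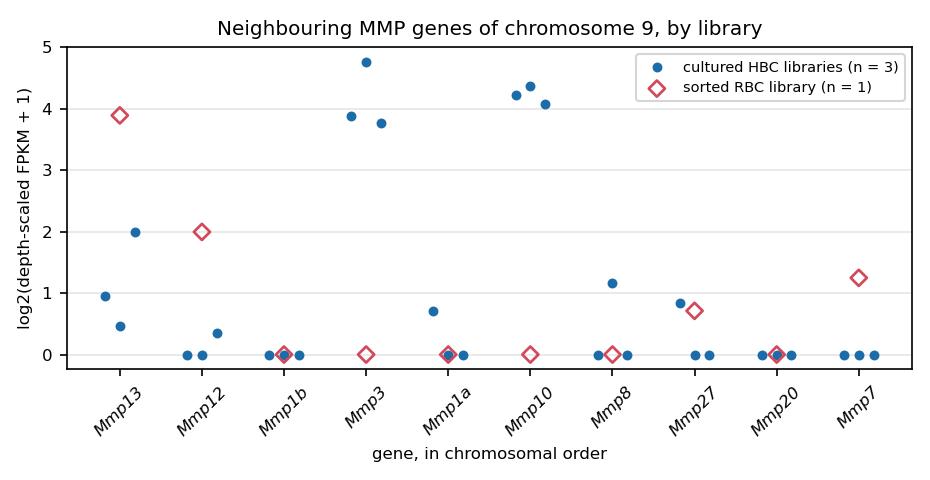
Depth-scaled FPKM on a log2(value + 1) axis for the 10 neighbouring MMP genes of chromosome 9, in their order along it. Filled points are the 3 HBC libraries and the diamond is the RBC library. Mmp3 (12.7 to 26.2) and Mmp10 (15.9 to 19.7) stand up in HBCs alone and Mmp13 (13.8) is the highest in RBCs.

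Of the 8 tested sheddase ADAMs, 4 were called higher in HBCs and 1 in RBCs, beside 12.8% and 34.2% of all genes tested. Adam9 and Adam8 had the highest HBC levels of the 79 genes. Adam9, which sheds EGF-type ligands and binds integrins, was at 3346, 3376 and 3324 in HBC libraries and 949 in RBCs, 3.53-fold higher in the cultures (log2 change -1.82, SE 0.0158, limma adjusted p = 6.21e-05). In HBCs it was above all but 1.94% of the genes in the table. Adam8, known from leukocytes and activated epithelium, was at 2482, 2678 and 2578 in HBCs and 425 in RBCs, 6.07-fold higher (log2 change -2.60, SE 0.0556, limma adjusted p = 0.000473). Of the 9 macrophage markers tested, 8 went the other way and Cd68 (515 ± 42.6 in HBCs, SD, n = 3, and 65.7 in RBCs) went with Adam8, and the part of such cells was not tested. Adam12, which cuts HB-EGF and IGF-binding proteins, was at 17.4, 19.9 and 20.8 in HBCs and 1.48 in RBCs (log2 change -3.03, SE 0.142, limma adjusted p = 0.00188).

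Adam17 (TACE), which frees TNF and several EGF receptor ligands, was at 600, 585 and 556 in HBC libraries and 286 in RBCs, 2.03-fold higher (log2 change -1.02, SE 0.0566, limma adjusted p = 0.00252). The HBC libraries did not overlap the RBC value, but the change sat at the 2-fold minimum. It fell under it without HBC library 1 (log2 change -0.99), with equal sums (-0.92), with values as deposited (-0.91) and with a pseudocount of 10 (-0.997). Adam17 shares 311 exonic bases with Iah1 on the other strand (715 in HBCs and 615 in RBCs). Adam10, the sheddase of Notch and E-cadherin, was at 879, 816 and 829 in HBCs and 524 in RBCs, a step in the same direction that stayed under 2-fold (log2 change -0.68, limma adjusted p = 0.00525). With equal medians it was called (log2 change -1.18). Adam15 was nearly level (316, 346 and 314 in HBCs and 274 in RBCs, limma adjusted p = 0.0754).

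Adam28, a sheddase of epithelia and lymphocytes, was the one sheddase called higher in RBCs. It was at 431, 438 and 404 in HBC libraries and 2503 in RBCs, 5.90-fold higher (log2 change 2.56, SE 0.0636, limma adjusted p = 0.000626). Adam28 thereby ranked 8 of the 79 genes in HBCs and 1 in RBCs. Within libraries, Adam28 divided by Adam9 was 0.129, 0.130 and 0.121 in HBCs and 2.64 in RBCs. Its neighbour on chromosome 14, Adam7, was at 0 in HBCs and 1.13 in RBCs. Adam19 was at 1.41 ± 0.569 (SD, n = 3) and 4.19 and was not called, and Adam33, a gene of mesenchymal cells, was at 0 in HBCs and 1.60 in RBCs.

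All 3 ADAMs that lack protease activity and act in the nervous system as adhesion and synaptic proteins were called higher in RBCs, beside 34.2% of all genes tested. Each had an HBC mean under 1 and passed the filter only through its RBC value, so the count itself is no support. All 8 olfactory neuron and glia markers were higher in the same library, and their part was not tested. Adam22 was at 0.655, 0.632 and 0.622 in HBCs and 16.6 in RBCs (log2 change 3.43, limma adjusted p = 1.79e-05). Adam11 was at 0.263, 1.33 and 1.04 in HBCs and 9.06 in RBCs, and Adam23 at 0, 0 and 0.688 and 5.87 (limma adjusted p = 0.0261 and 0.0218). Each RBC value stood above all HBC values, which the route through the filter largely fixes, so it is no support either. The small p of Adam22 rests on an SD of 0.0170 among 3 HBC values near the floor. The call of Adam11 was lost without HBC library 2 (adjusted p = 0.0661) or 3 (0.0921), and adjusted p ran from 0.00465 to 0.879 among the alternatives. That of Adam23 was lost without library 1 (adjusted p = 0.0826) or 2 (0.0829), and adjusted p ran from 0.00422 to 0.478.

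ADAMs known mainly from testis and sperm were absent or low, and 17 of these 21 genes stayed below the filter. Adam1a was at 6.43, 3.87 and 5.42 in HBC libraries and 51.9 in RBCs, 9.90-fold higher (log2 change 3.10, SE 0.314, limma adjusted p = 0.00745). Its largest exonic overlap is with Gm42878 (4779 bases, same strand), for which no value was listed. It also shares exonic bases with Mapkapk5 (1805, same strand, at 469 in HBCs and 293 in RBCs) and Tmem116 (848, opposite strand, at 10.8 and 7.98). Reads of Adam1a cannot be told apart from those of these genes in such stretches. Adam5 was at 0.979, 1.97 and 1.07 in HBCs and 6.63 in RBCs (limma adjusted p = 0.0251), but the call was lost without HBC library 1 (adjusted p = 0.0846) or 3 (0.0939). Its adjusted p ranged from 0.00881 to 0.223 over the alternatives, and its direction turned under quantile normalization (log2 change -0.63). Adam4 and Adam32 were not called (3.34 ± 1.75 and 4.19 ± 2.82 in HBCs, SD, n = 3, against 3.05 and 1.65 in RBCs).

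Of 16 tested ADAMTS genes, 3 were called higher in HBCs and 13 in RBCs, beside 12.8% and 34.2% of all genes tested. The filter favours the second count, since 8 of the 13 had an HBC mean under 1 and passed only through the RBC value, 3 of them at 0 in all HBC libraries. The 13 became 4 of 15 under quantile normalization, 5 with a pseudocount of 10, 8 without HBC library 1 or 3, and 6 of the 7 tested with a filter at 5. Adamts1, which cuts versican and aggrecan, was at 284, 286 and 265 in HBC libraries and 57.7 in RBCs, 4.83-fold higher in the cultures (log2 change -2.25, SE 0.0639, limma adjusted p = 0.000799). Adamts4, an aggrecanase, was at 7.36, 7.26 and 6.36 in HBCs and 0.80 in RBCs (log2 change -2.15, limma adjusted p = 0.00201). Adamts14, a procollagen-processing enzyme, was at 3.49, 4.87 and 5.35 in HBCs and 1.11 in RBCs (limma adjusted p = 0.0263). Its call was lost without HBC library 2 (adjusted p = 0.103) or 3 (0.0768), and adjusted p ran from 0.00380 to 0.103 among the alternatives.

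Towards RBCs, Adamts10, a protein of fibrillin microfibrils, was at 5.12, 4.58 and 4.52 in HBC libraries and 138 in RBCs, 29.1-fold higher (log2 change 4.60, SE 0.106, limma adjusted p = 0.000544). Adamts15, a versican-cutting enzyme, was at 0.406, 0.326 and 0.161 in HBCs and 46.3 in RBCs (log2 change 5.19, SE 0.142, limma adjusted p = 0.000747). Adamts7, which cuts cartilage oligomeric matrix protein, was at 3.61, 3.09 and 5.54 in HBCs and 40.3 in RBCs, 9.87-fold higher (limma adjusted p = 0.00983). None of these 3 reached an HBC value near that of RBCs. The Adamts7 call was lost without HBC library 1 (adjusted p = 0.0554, range over the alternatives 0.00277 to 0.0796), and Adamts7 shares 122 exonic bases with Tbc1d2b on the other strand (282 in HBCs and 393 in RBCs).

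The procollagen-processing enzymes Adamts2 and Adamts3 were below 1 in every HBC library and at 9.15 and 7.27 in RBCs (limma adjusted p = 0.00454 and 0.00451). With quantile normalization neither was called (limma adjusted p = 0.271 and 0.26, the highest of their alternatives, whose lowest were 0.000772 and 0.000736), and with a pseudocount of 10 both fell under 2-fold. The same RBC library held more Col1a1 (361 against 1.27 ± 0.265, SD, n = 3) and Col1a2 (350 against 2.64 ± 1.44, SD, n = 3), the procollagens that such enzymes trim, and more of all 10 fibroblast markers. No HBC library listed any Adamts18, Adamts20 or Adamts16, which RBCs held at 11.7, 7.12 and 2.33. What part other cells had in these ADAMTS values was not tested.

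The 5 other ADAMTS genes called higher in RBCs stood between 3.83 and 15.7 there and between 0.155 and 2.77 in HBC libraries, and each call depended on an HBC library. Adamts9, which cuts versican, was at 1.99, 0.640 and 1.58 in HBCs and 15.7 in RBCs, and its call was lost without library 1 (adjusted p = 0.0520) or 3 (0.0759), within a range of 0.00313 to 0.514. Adamts6 was at 2.77, 1.41 and 2.59 in HBCs and 13.2 in RBCs, and lost its call without library 1 (0.0626) or 3 (0.0726), within a range of 0.00505 to 0.521. Adamts5, an aggrecanase of connective tissue, was at 1.53 ± 0.432 (SD, n = 3) and 6.44, and lost its call without library 1 (limma adjusted p = 0.0543) or 3 (0.0779), within a range of 0.00616 to 0.0908. Adamts12 was at 0.563 ± 0.353 (SD, n = 3) and 3.83, and lost it without library 1 (limma adjusted p = 0.0931) or 3 (0.0933), within a range of 0.0014 to 0.40. Adamts17 was at 0.545 ± 0.386 (SD, n = 3) and 7.93, and lost it without library 3 (limma adjusted p = 0.0702), within a range of 0.00260 to 0.609. Under quantile normalization the direction of Adamts5, Adamts6 and Adamts12 turned.

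The inhibitors differed member by member. Timp3, which binds to the matrix and also inhibits ADAM17 and aggrecanases, was at 96.7, 89.2 and 93.1 in HBC libraries and 2123 in RBCs, 22.8-fold higher (log2 change 4.50, SE 0.0608, limma adjusted p = 0.000178). It lies within Syn3, on the other strand, and shares 1733 exonic bases with it, and Syn3 itself was at 12.2 in HBCs and 21.6 in RBCs. Timp4 was at 54.2 in RBCs, and every HBC library listed it at 0. Timp4 lies within Syn2 on the other strand, with 90 shared exonic bases, and Syn2 was at 0.0852 in HBCs and 31.1 in RBCs.

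Timp2, the inhibitor that also bridges Mmp14 and proMMP2, was at 1691, 1824 and 1723 in HBC libraries and 1230 in RBCs. The step was in the direction of the cultures and under 2-fold (log2 change -0.50, SE 0.0579, limma adjusted p = 0.00952), and it just passed that minimum with equal medians (-1.01). Mmp14 divided by Timp2 was 0.699, 0.710 and 0.686 in HBC libraries and 0.721 in RBCs, so the RBC ratio lay just above all HBC ratios. Timp1, an inhibitor induced by growth factors, was at 113, 132 and 157 in HBCs and 117 in RBCs, and the RBC value fell among the HBC values (limma adjusted p = 0.515). Timp3 divided by Timp2 was 0.0489 to 0.0572 in HBC libraries and 1.73 in RBCs. All 10 fibroblast markers were higher in the RBC library, and their part in the Timp3 and Timp4 values was not tested.

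Genes that act with these proteases were read from 5 lists. Of 24 tested activators and other inhibitors, 9 were called higher in HBCs and 11 in RBCs, beside 12.8% and 34.2% of all genes tested. Towards HBCs the most changed were the plasminogen activator Plau (34.0-fold, 1646 ± 81.3 against 48.4), its inhibitor Serpinb2 (49.5-fold, 3431 ± 84.8 against 69.4) and Lcn2 (15.5-fold, 11827 ± 126 against 764; SD, n = 3), a binding partner of MMP9. Towards RBCs they were the proteoglycans Spock1 and Spock2 (0.0696 and 1.52 on average in HBCs, 126 and 77.0 in RBCs) and the proprotein convertase Pcsk5 (1.42 and 90.0). Spock2 lost its call without HBC library 2 or 3 (limma adjusted p up to 0.131, lowest 0.00456). The count higher in RBCs became 7 of 22 under quantile normalization.

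The partners of ADAM17 and ADAM10 were called at about the shares of all genes tested (12.8% and 34.2%). Among the 8 tested, 1 was called higher in HBCs, the tetraspanin Tspan14 (2.68-fold, 1656 ± 28.4 against 618, SD, n = 3), which escorts ADAM10 to the cell surface. Called higher in RBCs were 3: the tetraspanins Tspan15 (3.81-fold, 70.1 ± 4.09 against 268) and Tspan33 (4.98-fold, 8.36 ± 1.98 against 41.6) and the ADAM17 regulator Rhbdf1 (2.09-fold, 297 ± 7.07 against 619; SD, n = 3). Rhbdf1 fell under the 2-fold minimum with equal medians (log2 change 0.56), and Tspan33 lost its call without HBC library 2 (limma adjusted p = 0.0711, range over the alternatives 0.00594 to 0.402).

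Of 25 tested proteins that these enzymes shed, 7 were called higher in HBCs and 10 in RBCs, the latter close to the 34.2% of all genes tested (12.8% for HBCs). In the HBC libraries the EGF receptor ligands Areg (32.6-fold, 1214 ± 23.2 against 37.2) and Ereg (10.5-fold, 426 ± 2.92 against 40.4) and the membrane chemokine Cxcl16 (8.71-fold, 2349 ± 15.6 against 270; SD, n = 3) led. Il6ra (18.6-fold, 15.8 ± 1.85 and 295) and Egf (16.1-fold, 2.44 ± 0.541 and 39.4) were among those higher in RBCs (SD, n = 3).

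Among other metzincins and ADAMTS-like matrix proteins, 1 of 7 tested was called higher in HBCs and 6 in RBCs (1 of them at 0 in all HBC libraries), beside 12.8% and 34.2% of all genes tested. Adamtsl4 was 15.2-fold higher in HBCs (721 ± 3.99 against 47.3, SD, n = 3). Papln, an ADAMTS-like protein of basement membranes, was 111-fold higher in RBCs (1539 against 13.9 ± 1.23, SD, n = 3), and Adamtsl3 and Adamtsl1 were at 153 and 54.4 there, with 1.32 and 0.342 on average in HBCs. Of 18 tested matrix substrates, 2 were called higher in HBCs, near the 12.8% of all genes, the osteopontin gene Spp1 (65.2-fold, 5288 ± 321 against 81.1) and Tnc (8.61-fold, 256 ± 5.80 against 29.8; SD, n = 3). The 10 called higher in RBCs (2 of them at 0 in HBCs; 34.2% of all genes) were led by Col7a1, the anchoring fibril collagen (232-fold, 769 against 3.31 ± 0.843, SD, n = 3), Col1a1 and Col1a2, and 3 of the list's genes (Col1a1, Col1a2 and Col3a1) are also on the fibroblast list.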

How the data were processed

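The authors deposited 1 table of values named FPKM, with 1 column per library. Per the submitters' processing notes, STAR, Cufflinks 2.2.1 and Cuffnorm were used with build mm9. Annotation, strand use and filters were not given in the sources. Among low genes (under 4 in every library), a ratio within 2% of 1 was found for 12.4% to 26.0% per pair of libraries, although column sums differed. The deposited FPKM were therefore taken to carry depth and were divided by a factor per library, its median quotient against the geometric mean of 11134 genes at 10 or more in all libraries (factors 0.843, 1.05 and 1.07 for HBC libraries 1, 2 and 3 and 1.06 for RBC). Read depth is unknown and counting intervals cannot be given. Genes with an average of the HBC mean and RBC value of at least 1 were fitted as log2(value + 1) with limma 3.58.1 in R 4.3.3 (mean-variance trend, two-sided). This scale understates changes of low genes. The procedure was also run on simulated libraries, in which the RBC library was given the spread of the HBC libraries. That run cannot show the error rate for the actual RBC library, whose spread is unknown.

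Members, lists and tests were chosen with earlier results of these data known. Named were members called, averaging at least 10 over the groups, all TIMPs and Mmp9, Mmp10, Mmp13 and Mmp14, and up to 3 called genes per direction of each pathway list. Values of other members are given for completeness, and Ly6g of the neutrophil list was not listed. Exon overlaps and gene order came from GENCODE M21 and promoters from RefSeq (both GRCm38), by symbol. Protein sequences were not used here, and a few items are not reported here. Alternatives were scaling, pseudocount, filter, trend and leaving out each HBC library.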

Additional observations from a re-analysis of the deposited data

How the results depend on the processing

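Over 69 named genes and their alternatives, 728 of 812 values kept their direction and their side of the threshold, 73 lost a call, 5 gained one and 6 turned. Most of these genes were named because they were called, which favours a high share, and genes under a setting's filter were left out. Of the 37 called members, 20 were called the same way with a pseudocount of 10, 21 with quantile normalization and 24 with a filter at 5. With 3589 genes called higher in HBCs and 3042 higher in RBCs under quantile normalization (2105 and 5621 as reported), members higher in RBCs fell to 9, and equal medians gave 3790 genes higher in HBCs. The log2 change turned to -0.63 for Adam5, -0.52 for Adamts12, -0.80 for Adamts5, -0.27 for Adamts6 and -0.76 for Mmp11 under quantile normalization and to -0.021 for Mmp11 with equal medians. A pseudocount of 10 gave 7 members higher in HBCs and 14 in RBCs, and a minimum of 5, which tested fewer genes, gave 15 in RBCs. Leaving out each HBC library in turn gave 8 to 10 members higher in HBCs and 18 to 22 in RBCs. The cause of these differences was not tested, beyond the smaller number of genes or libraries that a setting leaves. No paired analysis was possible because the labels give no pairing between the groups. The RBC library cannot be left out, and its spread is unknown.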
